A study of Mus musculus with 6 samples.

Results

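The Rab GTPases are a large family of small GTP-binding proteins that direct vesicle traffic. Every row of the deposited table whose symbol was Rab followed by a number, an optional letter and an optional further digit was taken as a member, and 50 of the 14912 gene rows met this rule. Another 25 rows whose symbols begin with Rab (such as Rab11fip1 or Rabgap1l, which are partners and not Rab GTPases) did not. Bone marrow cells of wild-type C57BL/6J mice were cultured with FLT3 ligand at 50 ng/ml, the cytokine that drives dendritic cells to form from bone marrow, and the medium with the ligand was renewed on day 7. In the midkine group (3 samples), human midkine made as recombinant protein (a growth factor that binds heparin) was present at 10 ng/ml for the last 2 days. The control group (3 samples) had the same strain, genotype and FLT3 ligand without midkine. The labels call the cells bone marrow derived dendritic cells, without saying which replicates came from separate mice or cultures. The p-values therefore rest on a spread that may be technical.

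A Rab protein switches between a GTP-bound form on a membrane and a GDP-bound form that a chaperone keeps in the cytosol. Exchange factors load GTP, GTPase-activating proteins end the signal, a geranylgeranyl anchor holds the protein on the membrane, and effectors such as tethers and motors act only on the GTP-bound form. Each Rab marks a compartment: Rab5 the early endosome, Rab4 and Rab11 recycling endosomes, Rab7 the late endosome, Rab1 and Rab2 the path between endoplasmic reticulum (ER) and Golgi, and Rab3, Rab8 and Rab27 the delivery of vesicles and granules to the plasma membrane. Dendritic cells use these routes to take up antigen, to process it in endosomes and to carry MHC molecules to the surface.

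The upstream sequences of 4 members are shown because these members, 2 higher and 2 lower with midkine, carry the clearest changes described below. The sequences are from RefSeq (GRCm38.p6), read 5′ to 3′ on the gene's strand, and end at the last base before any annotated exon. Rab34 lies on the plus strand (chr11:78188177-78188426), and Rab3d (chr9:21918193-21918433), Rab43 (chr6:87812165-87812414) and Rab32 (chr10:10558266-10558457) on the minus strand. Capitals mark matches to the searched motifs.
Rab34: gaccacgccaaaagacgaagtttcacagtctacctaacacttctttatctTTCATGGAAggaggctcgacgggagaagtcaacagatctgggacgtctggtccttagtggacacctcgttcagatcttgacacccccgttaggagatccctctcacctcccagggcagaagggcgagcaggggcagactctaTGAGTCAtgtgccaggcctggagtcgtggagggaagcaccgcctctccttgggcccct
Rab3d: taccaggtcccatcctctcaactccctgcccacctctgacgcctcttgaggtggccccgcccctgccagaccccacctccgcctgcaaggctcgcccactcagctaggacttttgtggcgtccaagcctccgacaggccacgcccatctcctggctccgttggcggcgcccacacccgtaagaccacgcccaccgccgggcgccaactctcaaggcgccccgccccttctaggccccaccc
Rab43: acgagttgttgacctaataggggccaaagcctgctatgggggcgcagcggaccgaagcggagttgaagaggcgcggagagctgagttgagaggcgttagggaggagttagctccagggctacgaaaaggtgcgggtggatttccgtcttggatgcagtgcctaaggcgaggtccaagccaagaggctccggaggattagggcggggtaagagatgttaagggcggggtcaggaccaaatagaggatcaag
Rab32: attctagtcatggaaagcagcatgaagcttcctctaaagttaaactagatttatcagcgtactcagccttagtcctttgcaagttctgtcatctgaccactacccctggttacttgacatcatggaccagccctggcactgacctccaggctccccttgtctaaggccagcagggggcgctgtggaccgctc
Of the 50 members, 39 had a RefSeq promoter entry, and the 250 bases before the start were searched on both strands. TGANTCA, the core site of AP-1, was found in 1 of 39 members, Rab34, at position -58 from the start, and in 6.85% of 27025 genes. TTCNNNGAA, the STAT core, was found in Rab34 (at -200), Rab11a and Rab19, against 7.14% of all genes. GAAANNGAA, a core of interferon regulatory factor sites, was found in Rab19 and Rab20, against 7.16% of all genes. CACGTG, the core of the CLEAR element of lysosomal genes, was found in 4 of 39 members (Rab5a, Rab20, Rab21 and Rab23), against 6.04% of all genes. GGAAGT, an ETS core, was found in 8 of 39 members, against 19.95% of all genes, and CCAAT in 19 of 39 (48.7%), against 34.5%. Matches to TTCNNNGAA can share bases with those to GAAANNGAA or GGAAGT, and a match is a description of sequence, not of binding. In Rab32 the only match (GGAAGT at -41) lies in annotated exon and is not printed.

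Depth ranged from 5089338 to 5532055 reads in the control group and from 5685055 to 6453768 in the midkine group. All 6 genes of the dendritic cell list (Flt3, Itgax, Zbtb46, Cd74, H2-Ab1 and Ptprc) were tested. By log2 fold change 2 were higher (Itgax 0.83 and H2-Ab1 0.27) and 2 lower (Zbtb46 -0.47 and Ptprc -0.42). Summed normalised counts were 34000 to 34850 in control and 35740 to 39090 in midkine libraries. Cd74 and H2-Ab1, with control means of 11800 and 15190, weigh most in these sums. Markers of several cell types moved with the groups: plasmacytoid dendritic cells (8 of 9 lower, sum 6547 to 6735 against 2003 to 2127), type 1 conventional dendritic cells (7 of 8 lower and 1 higher, 21870 to 25390 against 11260 to 12800), type 2 conventional (5 of 8 higher and 1 lower, 3171 to 3377 against 3904 to 4570), macrophages (4 of 10 higher and 4 lower, 5447 to 7960 against 15870 to 17390), neutrophils (3 of 4 lower, 538.8 to 672.7 against 54.1 to 80.0) and stromal cells (6 of 7 higher and 1 lower, 13840 to 17140 against 36190 to 39080). Of the remaining lists, B cell markers were lower for 2 of 4 (110.0 to 144.2 with midkine, 134.1 to 258.4 without), platelet markers higher for 3 of 4 and lower for 1 (340.0 to 409.6 against 373.1 to 537.4), and of the mast cell and basophil list only Kit was tested, and it was lower (sum 242.3 to 288.7 against 337.7 to 392.9, with Cpa3 at 1 read in 1 control library and 0 in the other 5). In the macrophage list the control and midkine means were 1385 and 9144 for Gpnmb and 828.5 and 4253 for Cd5l. Adgre1 and Cd68 were also higher, C1qa, C1qb, C1qc and Mrc1 were lower, and the list's median log2 fold change was -0.01. Mitochondrial ribosomal RNA rows took 9.33 to 9.86% of reads in control and 18.1 to 20.9% in midkine libraries. The part of these shifts in the Rab results was not tested, and in these bulk samples fewer cells of a type and less RNA per cell cannot be told apart.

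With midkine, 8 Rab genes were higher, 12 were lower and 22 did not pass the test, of 42 with a mean normalised count of at least 10 (limma on log2(value + 1), adjusted p under 0.05 over all genes tested). The higher members were Rab34, Rab3d, Rab12, Rab24, Rab6a, Rab40c, Rab23 and Rab18, and the lower ones Rab43, Rab32, Rab35, Rab11b, Rab5c, Rab1b, Rab33b, Rab7, Rab11a, Rab8a, Rab39 and Rab19. Over all 11844 genes tested, 42.7% were called, 20.9% higher and 21.8% lower, beside 47.6% of the members, so the share of called members is near the background. Only Rab34 among the called members changed at least 2-fold, whereas 10.1% of all genes did. The 2 groups did not overlap for 24 of the 42 members, beside 51.3% of all genes. The members' log2 fold changes ran from -0.75 (Rab32) to 1.07 (Rab34), with a median of -0.04 beside -0.01 over all genes, and their median absolute size was 0.28 beside 0.31. All 42 had a mean of at least 10 in each group, and the 8 members below the minimum are described further on.

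**Figure D1:**
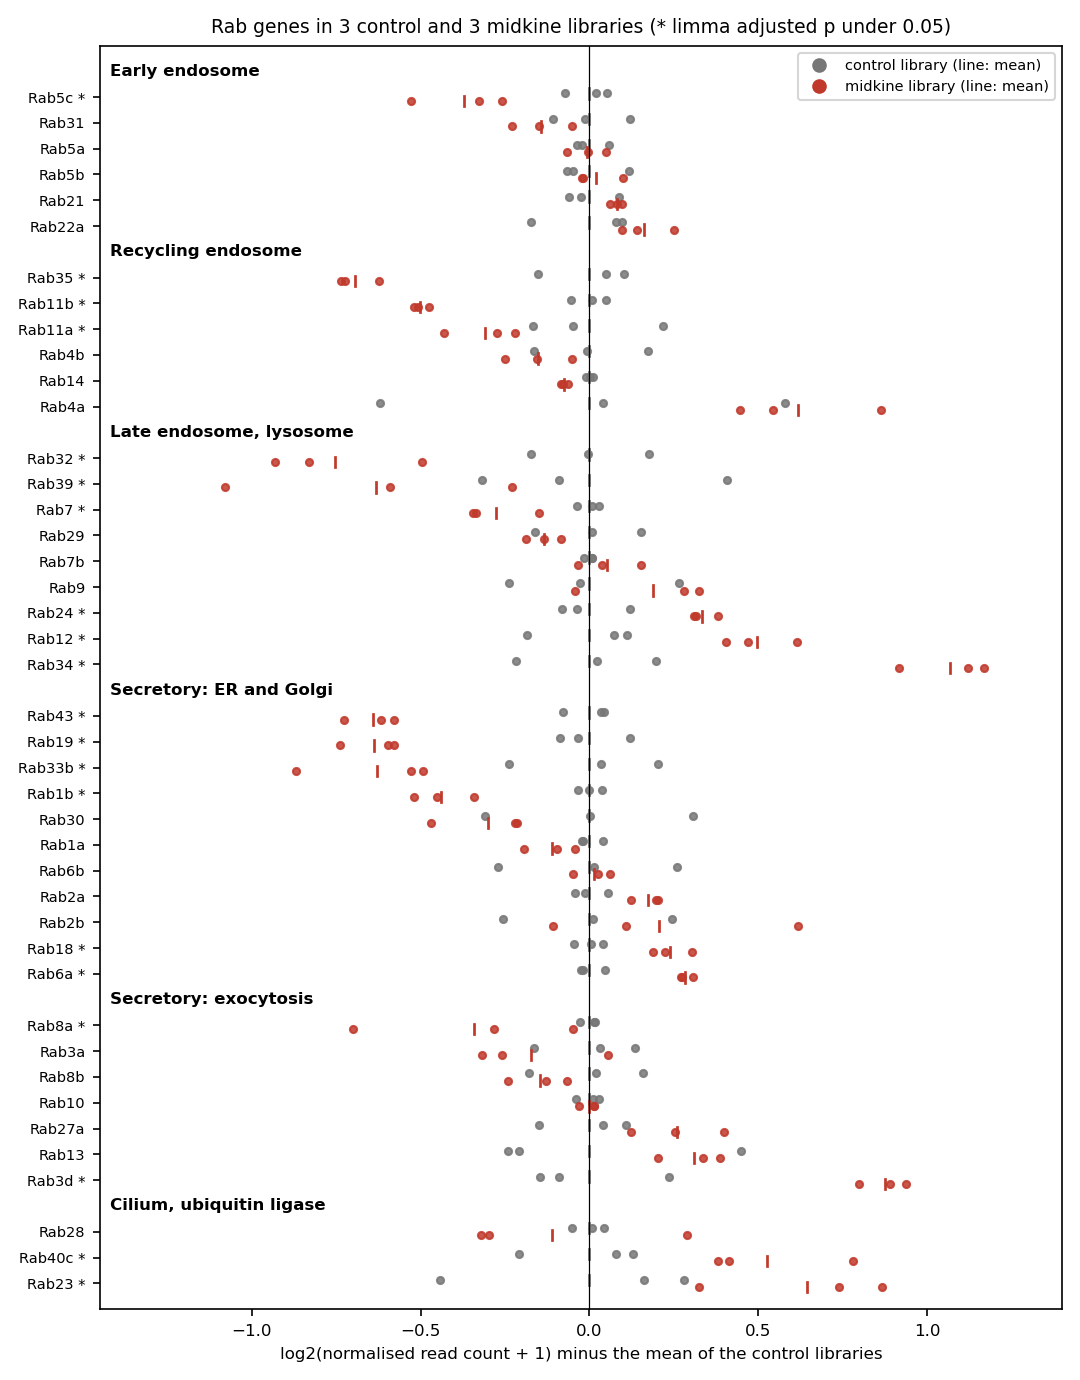
Each row is 1 of the 42 tested Rab genes and each point 1 library, placed by log2(normalised read count + 1) minus the mean of the 3 control libraries (grey control, red midkine, short lines the group means, rows grouped by compartment). By midkine group mean, Rab34 and Rab3d lie farthest to the right and Rab32 and Rab35 farthest to the left, and no early or recycling Rab is starred on the right.

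The split between higher and lower moved with scaling to total reads. TMM factors (a trimmed-mean scaling) and quantile normalization each gave 8 higher and 12 lower members. With quantile normalization the higher members were not all the same. Rab23 lost its call (log2 fold change 0.57, limma adjusted p = 0.0723), and Rab2a was called higher (0.215, 0.0327). The summed Rab reads were 0.413 to 0.440% of all reads in control and 0.332 to 0.337% in midkine libraries, and the summed normalised counts were 21740 to 22040 and 19910 to 21280. With libraries scaled to total reads the median over all genes was -0.26, and 2 members were higher (Rab34 and Rab3d) and 22 lower, so that 8.33% of the member calls were higher in place of 40.0%. For all genes that share was 21.0% in place of 49.0%, and with the ribosomal RNA rows left out of the totals it was 38.9%. With those rows left out, 6 members were higher and 12 lower. Relative to the all-gene median the members' median was -0.03 with the deposited factors and -0.04 with total reads. Leaving out 1 library moved the number of higher members to 5 without midkine replicate 2.

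**Figure D2:**
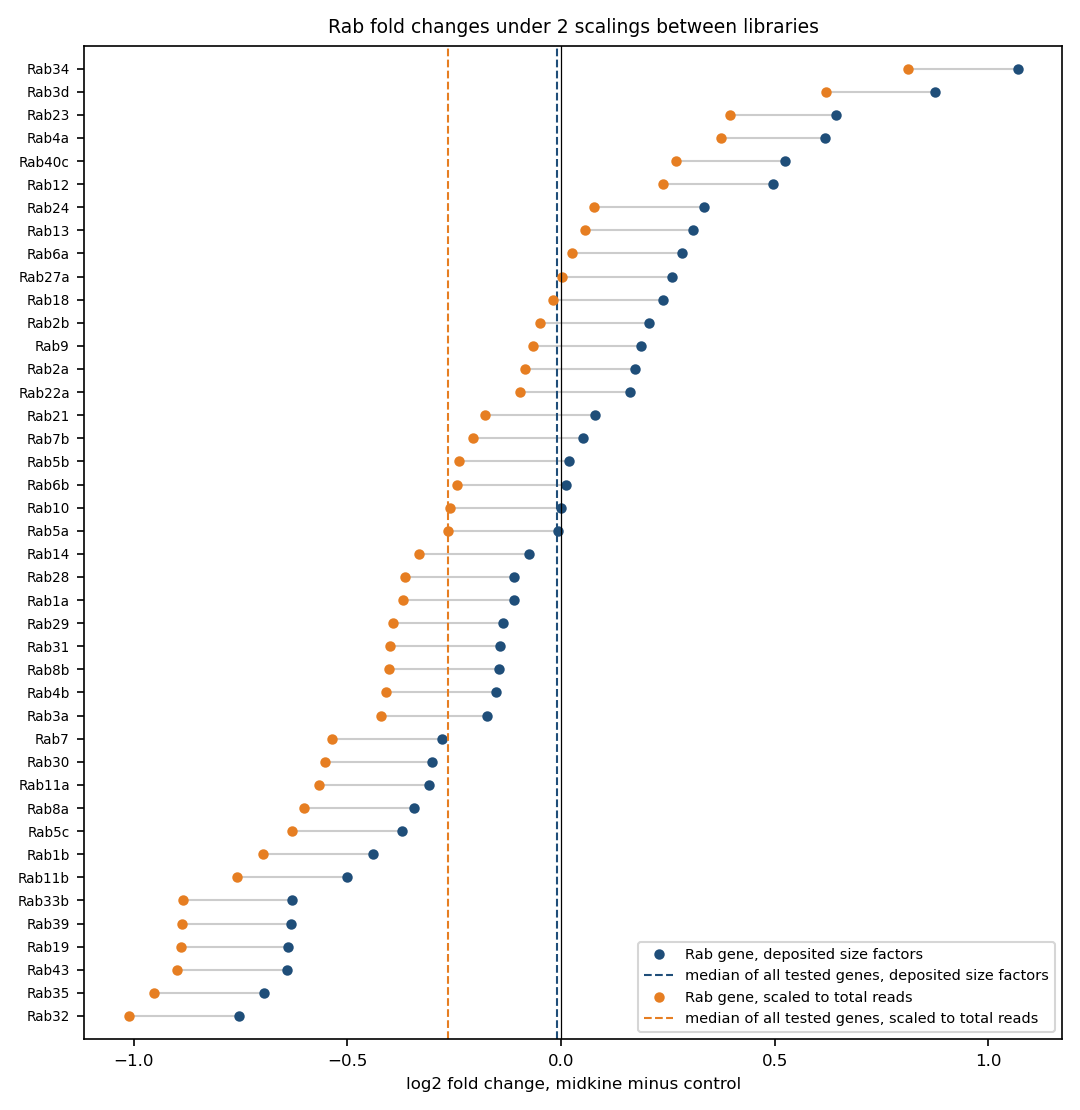
Each row is a tested Rab gene with its log2 fold change (midkine minus control) under the deposited size factors (blue) and with libraries scaled to total reads (orange), and the dashed lines are the medians of all tested genes at -0.01 and -0.26. All members shift left by a similar amount, so that several uncalled genes near 0 change sign, and Rab18, called higher under the deposited factors, lies just below 0.

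Of the 6 tested Rabs of the early endosome, 1 fell and none rose, and their median log2 fold change was 0.01. Rab5c, one of the Rab5 paralogues that drive fusion between early endosomes (chr11:100715009-100738215), had normalised counts of 1423, 1517 and 1550 in control and 1192, 1036 and 1250 in midkine libraries. All midkine libraries lay below all controls. Rab5c fell from 1497 ± 65.6 to 1160 ± 110.5 (SD, n = 3 each), a log2 fold change of -0.37 ± 0.08 (SE, limma adjusted p = 6.4e-04). Its paralogues Rab5a (269 ± 9.72 and 268 ± 10.8, log2 fold change -0.01) and Rab5b (314 ± 22.5 and 318 ± 15.4, 0.02) did not pass the test. Neither did Rab21, which acts in integrin uptake (log2 fold change 0.08, limma adjusted p = 0.49), Rab22a, which acts in recycling of clathrin-independent cargo (0.16, 0.27), or Rab31, of Golgi to endosome transport and phagosomes (-0.14, 0.33). Rab22a was higher in all midkine libraries (187.1 to 208.0) than in all controls (154.9 to 187.0) with almost no gap between them.

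Among the 6 tested recycling Rabs 3 fell and none rose, with a median of -0.23. The other recycling member, Rab15, was below the minimum mean and is described with the low members; it was called higher in the fit without that minimum. Rab35, a Rab of fast recycling and of actin at the plasma membrane (chr5:115631908-115647736), had 331, 277 and 319 normalised counts in control and 199, 186 and 185 in midkine libraries, with no overlap. That is a log2 fold change of -0.69 ± 0.11 (SE, limma adjusted p = 7.5e-06), to 61.5% of the control mean. Rab11b, of the slow recycling endosome (chr17:33742484-33760530), had 419, 401 and 432 against 293, 300 and 291, a narrow spread in both groups. It fell from 417 ± 15.3 to 294 ± 4.72 (SD, n = 3 each), a log2 fold change of -0.50 ± 0.09 (SE, limma adjusted p = 8.3e-05). Its paralogue Rab11a had 696, 532 and 577 against 443, 513 and 494, again without overlap. The Rab11a change was -0.31 ± 0.10 (SE, limma adjusted p = 0.0132). It did not pass without control replicate 1 (-0.20, adjusted p = 0.0977), without midkine replicate 1 (-0.25, 0.0757) or without the variance trend (0.108). Rab14, which moves cargo from Golgi to endosomes, had 1600 to 1622 normalised counts in control and 1521 to 1542 in midkine libraries, with no overlap and a log2 fold change of -0.08 that did not pass the test (limma adjusted p = 0.43). Rab4b (-0.15) and Rab4a (0.62 from 40 control and 58 midkine reads), the Rab4 pair of fast recycling, overlapped between groups and did not pass. Of the 3′ end words of Rab4b, 98.3% also occur in the predicted gene Gm21983, which has no row in the deposited table. Exons of Gm21983 overlap those of Rab4b on the same strand over 460 bases. Exons of Rab11b overlap those of Gm17251 on the other strand over 308 bases (log2 fold change of Gm17251 0.14).

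Late endosomal and lysosomal Rabs moved in both directions: 3 of 9 rose and 3 fell, with a median of 0.05. Rab34, which positions lysosomes near the Golgi and also acts in cilium formation (chr11:78188430-78192193), had 85.01, 96.1 and 71.9 normalised counts in control and 159, 183 and 190 in midkine libraries. Every midkine library was above every control by more than the spread within either group. The mean rose from 84.3 ± 12.1 to 177 ± 16.3 (SD, n = 3 each), a log2 fold change of 1.07 ± 0.14 (SE, limma adjusted p = 6.2e-07), or 2.10-fold. Stromal markers were higher in the same libraries, and their part in this rise was not tested. Rab12, which carries transferrin receptor from recycling endosomes to lysosomes (chr17:66494512-66519729), had 236, 290 and 282 against 372, 356 and 412. Its groups did not overlap, and the log2 fold change was 0.50 ± 0.10 (SE, limma adjusted p = 3.6e-04), falling to 0.24 (0.076) with scaling to total reads. Rab24, linked to the clearance of autophagosomes (chr13:55319743-55321946), had 824, 947 and 850 against 1085, 1136 and 1080. It rose by 0.33 ± 0.08 (SE, limma adjusted p = 0.00146), and with total reads its value was 0.08 (0.508). Exons of Rab24 overlap those of Prelid1 on the other strand over 830 bases, and Prelid1 itself had a log2 fold change of -0.33. The strand setting of the counting is not given in the sources used here.

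Rab32, a Rab of lysosome-related organelles and of phagosomes (chr10:10545002-10558265), had 750, 662 and 589 normalised counts in control and 470, 347 and 372 in midkine libraries. The highest midkine library lay below the lowest control. Rab32 had the most negative log2 fold change of the members, -0.75 ± 0.11 (SE, limma adjusted p = 2.7e-06), from 667 ± 80.7 to 397 ± 64.8 (SD, n = 3 each). Its close relative Rab38 had 11 reads over the control and 6 over the midkine libraries and was not tested. Rab7, the central Rab of late endosome and lysosome fusion, fell by 0.28 on the log2 scale (1257 to 1314 against 1014 to 1161, limma adjusted p = 0.00608, but 0.0661 without the variance trend). Rab39, which acts on phagosomes and late endosomes, had 91.6, 55.0 and 64.6 against 58.6, 32.1 and 45.4, and its groups overlapped. It passed the test (-0.63, limma adjusted p = 0.0202), but not without control replicate 1 (-0.43, 0.15), without midkine replicate 2 (-0.41, 0.132) or without the variance trend (0.102). Rab7b, which acts between late endosomes and the Golgi, supplied 20.0 to 20.6% of the summed Rab counts in control and 21.9 to 23.3% in midkine libraries, and its own level did not pass the test (4410 to 4485 against 4357 to 4955, log2 fold change 0.05). With scaling to total reads Rab7b was called lower, at -0.21 (adjusted p = 0.0309). Rab29, a partner of the kinase LRRK2 (-0.14), and Rab9, of retrieval from late endosomes to the Golgi (0.19), overlapped between groups and did not pass.

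The Rabs of the ER and Golgi were all tested: 4 of 11 fell and 2 rose, with a median of -0.11. Rab43, a Golgi Rab with a known role in cross-presentation by type 1 conventional dendritic cells (chr6:87788853-87812164), had 1528, 1406 and 1521 normalised counts in control and 994, 895 and 968 in midkine libraries. Its groups were far apart compared with the spread within each, and it had the smallest p of the members. Rab43 fell from 1485 ± 68.5 to 952 ± 51.0 (SD, n = 3 each), a log2 fold change of -0.64 ± 0.08 (SE, limma adjusted p = 2.5e-07), while 7 of 8 type 1 conventional markers were lower, with a median of -0.88 (their part in the fall was not tested). Of the 3′ end words of Rab43, 48.9% also occur in the predicted gene Gm45140, which has no row in the deposited table. Its exons overlap those of Rab43 on the same strand over 3980 bases, so reads of Rab43 may have been lost or shared between both.

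Rab1b, of transport from ER to Golgi (chr19:5099205-5107072), had 235, 247 and 241 against 176, 168 and 190, a log2 fold change of -0.44 ± 0.11 (SE, limma adjusted p = 0.00171). Rab33b, of the Golgi and of autophagosome formation (chr3:51483920-51496232), had 87.8, 119 and 106 against 56.3, 73.3 and 71.6, a change of -0.63 ± 0.16 (SE, limma adjusted p = 0.00256). Neither gene's groups overlapped. The 3′ end of Rab33b holds repeated sequence, with up to 11.2% of its words shared with another of 83 genes. Rab6a, the Rab of the Golgi and of retrograde traffic (chr7:100607410-100641268), had 519, 494 and 496 against 606, 622 and 608. It rose by 0.28 ± 0.08 (SE, limma adjusted p = 0.00751), and with total reads its value was 0.03 (0.829). Exons of Rab6a overlap those of Mrpl48 on the other strand over 409 bases (log2 fold change of Mrpl48 -0.07). Rab19 fell to 63.3% of its control mean (124 control and 76 midkine reads, limma adjusted p = 0.0214), but did not pass without control replicate 3 (0.082) or midkine replicate 1 (0.056). Rab18, of the ER and lipid droplets, was higher at the edge of the threshold (280.4 to 297.5 against 329.9 to 357.4, log2 fold change 0.24, limma adjusted p = 0.0442). The Rab18 call was lost without control replicate 2 or 3 (0.0895 and 0.136), without midkine replicate 1, 2 or 3 (0.0718, 0.123 and 0.0688) and without the variance trend (0.0798), and with total reads its sign turned (-0.019). Rab1a (-0.11), Rab2a (0.17, limma adjusted p = 0.0852), Rab2b (0.21), Rab6b (0.01) and Rab30 (-0.30) did not pass, although the groups did not overlap for Rab1a and Rab2a.

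Of the exocytic Rabs, 1 of 7 tested rose and 1 fell, with a median log2 fold change of -0.0008. Rab3d, a Rab of regulated exocytosis found on secretory granules (chr9:21907491-21918192), had 67.1, 87.7 and 69.8 normalised counts in control and 139, 130 and 143 in midkine libraries. The lowest midkine library was well above the highest control. Rab3d rose from 74.9 ± 11.2 to 137 ± 6.66 (SD, n = 3 each), a log2 fold change of 0.88 ± 0.14 (SE, limma adjusted p = 2.0e-05), or 1.84-fold. Rab8a, of transport from Golgi to plasma membrane (chr8:72161200-72183904), had 1141, 1174 and 1177 against 1126, 716 and 957. Its midkine libraries were spread widely below a tight control group, and the log2 fold change was -0.34 ± 0.11 (SE, limma adjusted p = 0.0119). The Rab8a call was lost without midkine replicate 2 (-0.16, 0.133) and, with all libraries, without the variance trend (0.154). Rab10, a further Rab of Golgi to plasma membrane transport, had a log2 fold change of -0.0008 (1457 to 1529 against 1466 to 1513). Rab27a, which docks secretory granules and exosome-bearing endosomes, was higher in all midkine libraries (197.7 to 239.2) than in all controls (163.3 to 195.5) without passing the test (0.26, limma adjusted p = 0.0717). Rab8b (-0.15), Rab13 (0.31) and Rab3a (-0.17) overlapped between groups. Markers of neutrophils, which are rich in granules, were lower as given above, and their part in these values was not tested.

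Of 3 Rabs placed outside these routes, 2 rose. Rab40c, a substrate receptor of a ubiquitin ligase (chr17:25882114-25919727), had 63.3, 77.4 and 80.3 against 95.8, 126.5 and 97.9, a log2 fold change of 0.52 ± 0.16 (SE, limma adjusted p = 0.00853). Rab23, of the cilium and a brake on Hedgehog signalling (chr1:33719887-33742564), had 28.3, 16.8 and 26.1 against 29.3, 43.1 and 39.4, from 73 control and 112 midkine reads. The groups of both genes did not overlap, but for Rab23 the nearest control and midkine libraries were almost equal (28.3 and 29.3). Rab40c did not pass without midkine replicate 2 (0.40, adjusted p = 0.0696) or with total reads (0.184). The Rab23 value of 0.64 ± 0.25 (SE, limma adjusted p = 0.0416) did not pass without control replicate 2 (0.209), midkine replicate 2 (0.154) or midkine replicate 3 (0.118), nor with total reads (0.205) or without the variance trend (0.0649). Rab28, another ciliary Rab, had a log2 fold change of -0.11 and overlapped.

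**Figure D3:**
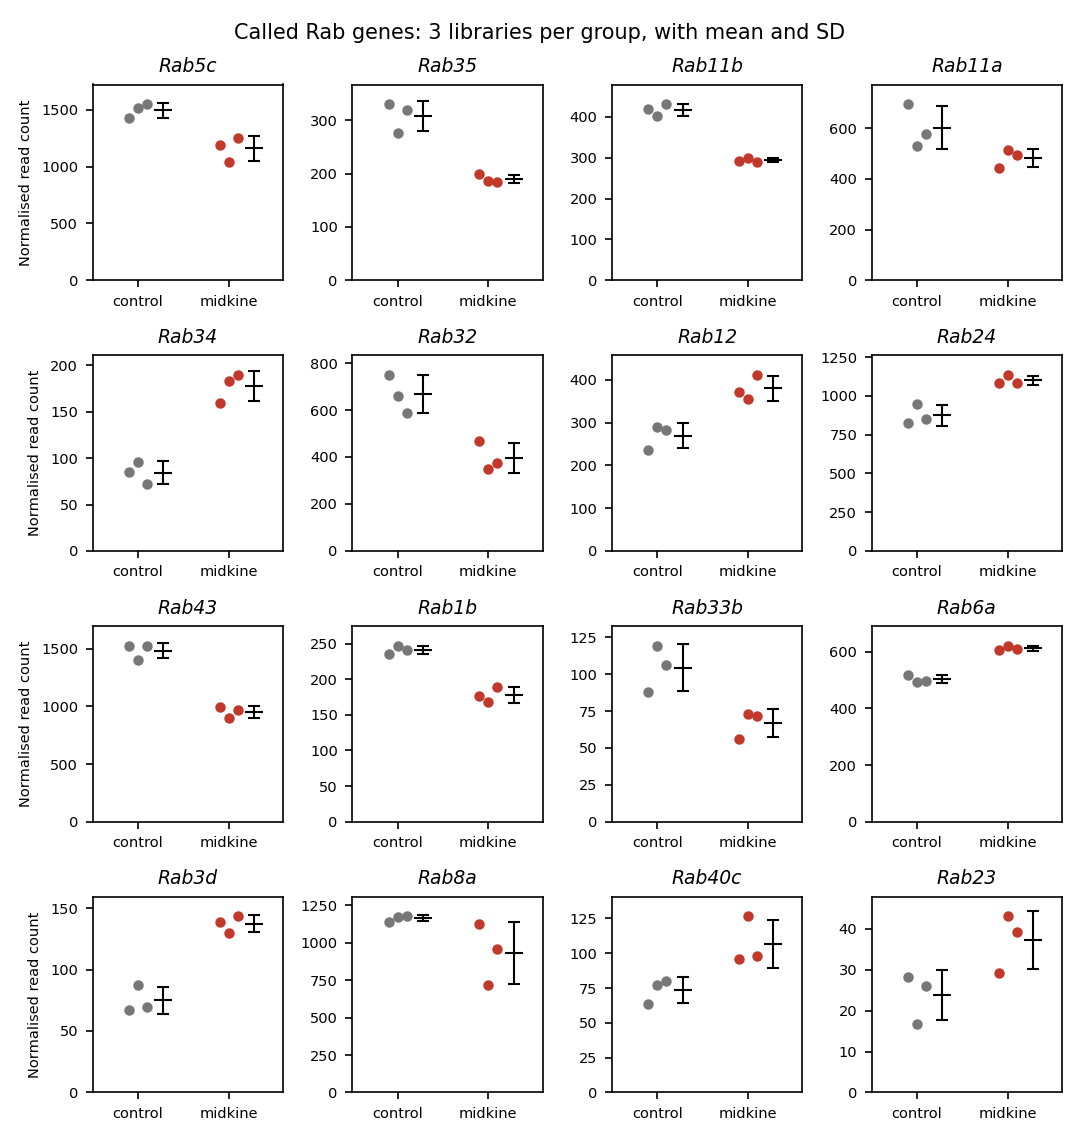
Each panel shows 1 called Rab gene with its normalised read count in the 3 control (grey) and 3 midkine (red) libraries, on axes that start at 0, and black bars show the mean and SD. The means of Rab34 (84.3 to 177) and Rab3d (74.9 to 137) differ most on the log2 scale among the higher genes, and in the Rab8a panel midkine replicate 2 lies apart at 716.

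The 8 members below the mean of 10 were Rab15, Rab20, Rab26, Rab27b, Rab36, Rab37, Rab38 and Rab44. Rab15, an endosomal recycling Rab best known from neurons, had 7 reads over the control and 30 over the midkine libraries (1.89, 2.80 and 2.08 normalised counts against 11.3, 10.1 and 9.08). Its groups did not overlap, and in the fit without the minimum its log2 fold change was 1.78 ± 0.45 (SE, limma adjusted p = 0.00288). Rab20, of macropinosomes and phagosomes, had 19 and 30 reads. Rab36 had 18 and 19 reads, Rab27b 13 and 12, Rab37 6 and 11, Rab26 4 and 8, and Rab44 5 and 2. These 6 overlapped between groups, as did Rab38, and a difference between them was not detectable at this depth.

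Paralogues with the same Rab number were compared within libraries. For 11 pairs with both genes tested, the log2 ratio of one to the other was compared between groups by an exact two-sided permutation test, in which 3 against 3 libraries cannot go below p = 0.10, so no pair could pass. The ratio did not overlap between groups for 5 pairs, each at 0.22 after Benjamini-Hochberg adjustment over the 11 pairs. Of single genes 51.3% did not overlap, and no such share was computed for ratios of other gene pairs. Rab5a over Rab5c and Rab5b over Rab5c share the values of Rab5c. Rab5a over Rab5c rose from -2.47 ± 0.12 to -2.11 ± 0.19 (log2 ratio, SD, n = 3 each), a shift of 0.36 (exact p = 0.1), and Rab5b over Rab5c shifted by 0.39 (exact p = 0.1). Rab1a over Rab1b shifted by 0.33 (from 1.09 to 1.42), Rab7 over Rab7b by -0.33 (from -1.79 ± 0.02 to -2.12 ± 0.04), and Rab3a over Rab3d by -1.05 (from -1.50 to -2.55), each at an exact p of 0.1. The other 6 ratios overlapped, among them Rab11a over Rab11b (0.19), whose genes both fell. A ratio within a library hardly depends on the scaling between libraries, and it shows unequal change only.

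The summed Rab counts were also divided by compartment. Late Rabs were 36.6 ± 0.62% in control and 39.2 ± 0.91% in midkine libraries (SD, n = 3 each), and this includes Rab7b. Rab7b alone was 20.4 ± 0.32% and 22.4 ± 0.74%. The summed late counts overlapped between groups, both with Rab7b (7952 to 8112 in control and 7698 to 8557 in midkine libraries) and without it (3473 to 3627 and 3341 to 3602). The sum of all Rabs, by which the shares are divided, was 21740 to 22040 in control and 19910 to 21280 in midkine libraries. Recycling Rabs were 14.9 ± 0.37% and 13.6 ± 0.59%, ER and Golgi Rabs 18.4 ± 0.04% and 17.5 ± 0.62%, and early Rabs 13.3 ± 0.13% and 12.7 ± 0.47%. Exocytic Rabs were 15.8 to 16.2% in control and 15.3 to 16.7% in midkine libraries. For late Rabs the lowest midkine library (38.6%) was above the highest control (37.3%), and for recycling Rabs the highest midkine library (14.3%) was below the lowest control (14.5%). The ER and Golgi shares did not overlap either (18.4 to 18.5% in control and 16.9 to 18.1% in midkine libraries), nor did those of Rab23, Rab28 and Rab40c together (0.720 to 0.800% and 0.842 to 1.12%). The early and exocytic shares overlapped. These shares are of 3′ end counts, which are not divided by length, and the compartments were not tested against each other.

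The genes that act on or with Rabs were described from 7 lists. Of 144 symbols listed, 135 had a row and 129 were tested. Rbsn was listed also under its older symbol Zfyve20, which had no row. Of those tested, 35 were higher (27.1%) and 19 lower (14.7%), beside 20.9% and 21.8% of all genes. In all 41.9% were called, near the 42.7% of all genes, with a median log2 fold change of 0.10 beside -0.01 for all genes. Exchange factors were higher for 8 and lower for 6 of 36. Dennd4a, an exchange factor for Rab10, rose from 272 ± 8.92 to 510 ± 35.2 normalised counts (SD, n = 3 each, log2 fold change 0.90, limma adjusted p = 1.7e-08), while Rab10 itself had -0.0008. Rab3gap1, part of the exchange factor for Rab18, rose by 0.46 (limma adjusted p = 1.2e-04, and 0.0724 with total reads), and Ccz1, part of the Rab7 exchange factor, fell by 0.50 (limma adjusted p = 1.1e-04). The 2 exchange factors with the largest changes, named after their values were seen, were low genes: Dennd2a had 30 control and 95 midkine reads (1.61, limma adjusted p = 3.5e-04), and Dennd3, an exchange factor for Rab12, 35 and 91 reads (2.65-fold, 9.8e-04).

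GTPase-activating proteins were higher for 8 and lower for 4 of 32. Rabgap1l (-0.46), Tbc1d5, which acts on Rab7 (-0.46), and Tbc1d4, which acts on Rab10 and its relatives (-0.38), were the called ones with the smallest p (limma adjusted p = 0.00192, 0.00218 and 0.00313). Tbc1d2, also of Rab7 and named after its values were seen, had 18 and 44 reads and overlapping groups (1.27, 0.024). Of 6 genes of prenylation and the cycling of Rabs between membrane and cytosol, 2 rose and none fell. Rabac1, which helps deliver Rabs to membranes, rose by 0.52 (limma adjusted p = 6.0e-05). Rabggtb, a subunit of the enzyme that adds the geranylgeranyl anchor, rose by 0.47 (0.00141), but did not pass with total reads (0.149).

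Effectors bind the GTP-bound Rab and carry out its action. The effector lists are wider than this and also hold partners and relatives of effectors, such as Ehd1 and Rilpl2. Early effectors were higher for 2 and lower for 3 of 12: Eea1, the tether that Rab5 recruits, had 605, 615 and 650 normalised counts in control and 1134, 996 and 1007 in midkine libraries. Its groups did not overlap, and the log2 fold change was 0.74 ± 0.08 (SE, limma adjusted p = 5.4e-08), against -0.37 for Rab5c. Ankfy1 (-0.39), another Rab5 effector, and Pik3c3 (-0.36), the lipid kinase of early endosomes and autophagy, fell, but Pik3c3 did not pass without control replicate 3 (0.101) or midkine replicate 1 (0.0691). Recycling effectors were higher for 3 and lower for 4 of 12: Ehd1, an ATPase of recycling endosomes, had 245, 262 and 251 against 566, 488 and 582. That is a log2 fold change of 1.10 ± 0.10 (SE, limma adjusted p = 8.0e-10), while its relative Ehd4 (-0.52) and the Rab4 and Rab14 effector Rufy1 (-0.50) fell. Late effectors were higher for 7 and lower for 2 of 17, with Rilpl2, a relative of the Rab7 effector RILP, at 0.97, Osbpl1a, the Rab7-bound cholesterol sensor, at 0.68 and Plekhm3 at -0.78 (limma adjusted p = 2.6e-07, 2.0e-04 and 3.0e-06). Secretory effectors were higher for 5 and lower for none of 14. Optn, optineurin, which binds Rab8 and acts as an autophagy receptor, had 29.3, 21.5 and 39.6 against 112.7, 101.7 and 85.8, a log2 fold change of 1.73 ± 0.20 (SE, limma adjusted p = 1.5e-07). Ehbp1, a Rab8 and Rab10 effector, rose by 0.87 (0.00542) and Golga2, the Golgi tether GM130, by 0.40 (0.00135), the latter not with total reads (0.287). These lists were not compared with each other by a test.

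**Figure D4:**
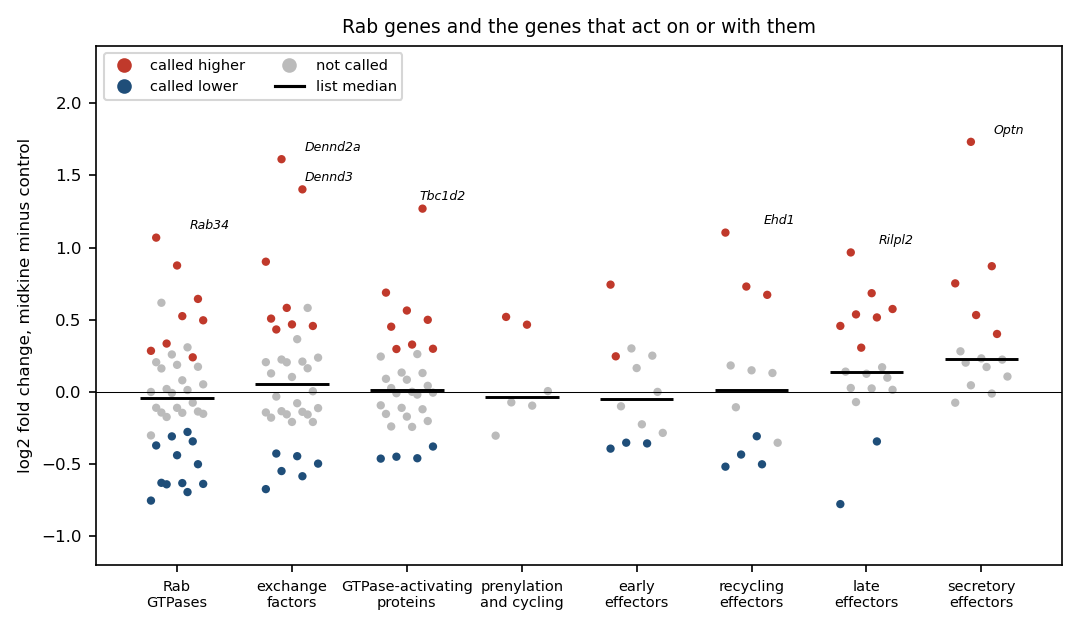
Each point is 1 tested gene, placed by its log2 fold change (midkine minus control), for the Rab genes and for the 7 lists of genes that act on or with them (red called higher, blue called lower, grey not called, black lines the list medians). The medians run from -0.05 (early effectors) to 0.23 (secretory effectors), and Optn has the largest rise at 1.73.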

How the data were processed

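Libraries of 3′ ends (QuantSeq forward kit, Illumina HiSeq, 500 ng of total RNA, per the labels) were compared as 3 control against 3 midkine samples. The tools named in the submitters' processing notes, without their roles, are TopHat2 2.0.10 with Bowtie 1.0.0, HTSeq, DESeq2, SAMtools 0.1.19 and FastQC 0.11.0. Neither annotation nor strand setting is given in the sources used here. The values the authors deposited are a signal: the count of reads per gene, scaled in each library by its own size factor. All values (100%) were whole multiples of the value of 1 read within 1e-06 reads, so reads could be recovered; in midkine replicate 3 that value is 1.01, close to 1. Reads carry no molecular identifiers named in the labels. Ratios of chi-square to degrees of freedom between replicates were 2.31 to 10.6, above counting noise. They cover rows with at least 10 reads over the pair of replicates, scaled to the total of those rows. These rows include the ribosomal RNA row Gm42418, which took 5.89 to 11.96% of reads in control libraries. The ratios therefore do not give the spread of single genes.

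Genes with a mean of at least 10 were tested with limma 3.58.1 (R 4.3.3, variance trend) on log2(value + 1), Benjamini-Hochberg adjusted over 11844 genes, threshold 0.05; this scale understates changes of low genes. edgeR 4.0.16 and DESeq2 1.42.0 on recovered reads, other pseudocounts, filters, scalings and left-out libraries were alternatives. Scripts were tested on simulated data. Members, lists, compartments and tests were chosen with earlier results of these data known. Per compartment, up to 4 called members with the smallest p, and all called members that changed at least 2-fold, are given in every library; of each pathway list up to 3 called genes with the smallest p are named. An item of these lists is not reported here and was left out of their counts. Positions are from GENCODE vM21 (GRCm38), which held 14852 of 14912 symbols (99.6%), and promoters from RefSeq (GRCm38.p6). Figures used Python 3.11.15 and matplotlib 3.10.9.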

Additional observations from a re-analysis of the deposited data

How the results depend on the processing

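Of the 20 called members, 9 kept their call in each alternative tried: Rab5c, Rab32, Rab34, Rab11b, Rab35, Rab1b, Rab33b, Rab43 and Rab3d. edgeR called the same 20 members, DESeq2 17 of them (not Rab18, Rab19 or Rab23), and limma without the variance trend 6 higher and 8 lower. Scaling to total reads gave 2 higher and 22 lower members, a member median of -0.30, and turned the sign of Rab7b (-0.21) and Rab18 (-0.019) among members called under either scaling; without ribosomal RNA rows in the totals the median was -0.12. Such a scaling shifts all genes alike. Leaving out each library in turn gave 5 to 9 higher and 10 to 12 lower members, with 5 higher without midkine replicate 2; the causes were not tested. Samples with the same replicate number did not deviate together (correlations of deviations -0.0097, 0.0286 and -0.0577, beside -0.0415 to 0.0541 for different numbers). This cannot show whether samples shared a mouse or culture. With the replicate number as a block 7 members were higher, 12 lower and 5160 genes called, with Rab18 the lost member. Depth limits the 8 members with a mean under 10.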
